A study of Mus musculus with 4 samples.

Results

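Cytosolic ribosomal proteins are the protein part of the ribosome, and their genes were taken here as the protein-coding genes of GENCODE vM21 whose symbols are Rpl or Rps with a number, together with Rplp0, Rplp1, Rplp2 and Rpsa. Pseudogenes and the S6 kinases were left out. The rule found 86 of 21853 protein-coding genes. Of these, 46 encode large subunit proteins and 31 small subunit proteins, and the other 9 are the paralogs Rpl3l, Rpl10l, Rpl22l1, Rpl39l, Rpl7l1, Rpl36al, Rps27l and Rps27rt and the gene Rps19bp1, whose product binds Rps19 and is not a ribosomal protein. Accessible chromatin was mapped by ATAC-seq, in which the transposase Tn5 cuts open DNA, in aortic nuclei of 60-day-old C57BL/6J mice. The groups were control (Col3a1+/+) and VEDS, the mouse model of vascular Ehlers-Danlos syndrome that carries 1 copy of a glycine missense allele of the type III collagen gene (Col3a1 G938D/+), and the labels name no drug. There were 4 libraries, a female and a male one for each genotype, and every library pooled 2 mice. A single-cell ATAC kit was used, and signal was summed over all nuclei of a library, so that fewer cells of a type and less accessibility per cell cannot be told apart.

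A ribosome needs its proteins in nearly equal amounts, and their genes are transcribed in every dividing or growing cell. In vertebrates these genes mostly lack a TATA box, start transcription at a cytosine inside a pyrimidine tract (the TCT initiator), and give mRNAs with a 5′ terminal oligopyrimidine tract (TOP mRNAs), whose translation is set by mTORC1. Promoters of the family often hold binding sequences of ETS factors such as GABP, of YY1, SP1 and NF-Y, and of CREB-type factors. Many introns of these genes also encode small nucleolar RNAs that guide modification of rRNA.

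The promoters below are shown because their strings recur in the sections on sequence and on peak rank. Each runs from 60 bases before the transcription start site (TSS) to 25 bases from it, 5′ to 3′ along the direction of transcription, in GRCm38, so that base 61 is the TSS. In this set, capitals mark CCGGAAG, the ETS core, on either strand.
Rps21 (chr2:180257317-180257401, plus strand): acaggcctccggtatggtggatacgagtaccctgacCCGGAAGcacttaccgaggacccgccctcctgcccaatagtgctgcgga
Rps6 (chr4:86857388-86857472, minus strand): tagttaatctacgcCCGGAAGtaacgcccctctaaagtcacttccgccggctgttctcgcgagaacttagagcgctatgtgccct
Rpl11 (chr4:136053369-136053453, minus strand): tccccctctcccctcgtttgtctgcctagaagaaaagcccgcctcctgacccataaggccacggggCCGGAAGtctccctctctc
Rpl31 (chr1:39367782-39367866, plus strand): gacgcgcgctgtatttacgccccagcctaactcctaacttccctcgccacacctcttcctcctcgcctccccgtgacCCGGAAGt
In the next set, capitals mark TGACG, the core of the cAMP response element (CRE), on either strand. In Rps9, Rpl13 and Rpl27a the 2 strands' cores overlap to give the whole element, and Rpl34 holds 3 separate cores.
Rps9 (chr7:3703933-3704017, plus strand): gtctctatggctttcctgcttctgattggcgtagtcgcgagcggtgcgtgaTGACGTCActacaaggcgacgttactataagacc
Rpl13 (chr8:123102290-123102374, plus strand): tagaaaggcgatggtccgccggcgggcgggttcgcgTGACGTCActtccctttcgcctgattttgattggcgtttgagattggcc
Rpl27a (chr7:109519087-109519171, plus strand): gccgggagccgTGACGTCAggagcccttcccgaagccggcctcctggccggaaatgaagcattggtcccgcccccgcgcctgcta
Rpl34 (chr3:130730374-130730458, minus strand): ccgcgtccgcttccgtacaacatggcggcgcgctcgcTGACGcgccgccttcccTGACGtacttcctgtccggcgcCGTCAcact
In the third set, capitals mark CTTT followed by 2 pyrimidines on the coding strand, the strings searched for the TCT initiator.
Rps27 (chr3:90213627-90213711, minus strand): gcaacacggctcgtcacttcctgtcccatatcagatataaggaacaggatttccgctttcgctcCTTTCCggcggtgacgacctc
Rps27rt (chr9:114982715-114982799, minus strand): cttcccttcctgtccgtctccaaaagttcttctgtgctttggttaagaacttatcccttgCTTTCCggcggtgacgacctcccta
Rplp1 (chr9:61914518-61914602, minus strand): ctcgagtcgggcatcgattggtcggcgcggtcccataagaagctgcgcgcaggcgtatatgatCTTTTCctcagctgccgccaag
Rpl5 (chr5:107900442-107900526, plus strand): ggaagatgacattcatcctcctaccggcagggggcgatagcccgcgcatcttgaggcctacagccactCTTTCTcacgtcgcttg
Rps15 (chr10:80292393-80292477, plus strand): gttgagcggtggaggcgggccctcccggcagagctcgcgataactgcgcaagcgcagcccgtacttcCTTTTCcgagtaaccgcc
Rps27rt is a retrotransposed copy of Rps27, and both windows hold the same run of bases from CTTTCC through the CRE core. In the sequence of Rps19, which was the single member with a promoter peak in all 4 libraries, capitals mark the SP1 box GGGCGG on the other strand.
Rps19 (chr7:24884311-24884395, plus strand): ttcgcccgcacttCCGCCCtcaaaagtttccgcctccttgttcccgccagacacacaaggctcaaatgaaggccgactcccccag

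The 4 peak lists differed in length. The control female list held 21176 peaks with a median of 14 fragments at the summit, and the VEDS male list held 41444 with a median of 22. The control male list held 1236 peaks with a median of 7 fragments, and the VEDS female list 504 with a median of 6. Peaks of which over 50% of bases are masked as repeats made up 3.9% and 5.1% of the long lists (control female and VEDS male), but 69.6% of the control male and 28.1% of the VEDS female list. Promoters of 6 smooth muscle genes (Acta2, Myh11, Tagln, Cnn1, Smtn, Lmod1) were all peaks in both long lists and none in the short ones. Of the endothelial, fibroblast, immune, adipocyte and striated muscle genes checked, the control female list held no promoter peak, and the VEDS male list held 2 of 5 endothelial and 1 of 4 striated muscle genes. A gene without a peak in a list was not taken as closed. Pairs of values for the long lists are given with the control female library first and the VEDS male library second.

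Nearly all ribosomal protein genes were accessible at their promoters in the long lists. A peak lay within 1 kb of the TSS of 80 of the 86 genes in the control female library (93%, 95% Wilson interval 85.6% to 96.8%), where 41.5% of all protein-coding genes had one. In the VEDS male library it was 82 of 86 (95.3%, 88.6% to 98.2%), against 51.8% of all protein-coding genes. In the short lists few members were seen. The VEDS female list held 4 (4.65%, 1.82% to 11.4%) where 1.24% of all genes were held, and the control male list held 3 (3.49%) where 1.19% were held. These intervals cover counting error over genes only.

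Without the paralogs and Rps19bp1, 75 and 77 of the 77 ribosomal protein genes had a promoter peak in the long lists. For the large subunit, it was 45 and 46 of 46, and for the small subunit 30 and 31 of 31. The 2 genes with a promoter peak in the VEDS male library alone were Rpl8, a protein near the peptidyl transferase center, and the X-linked Rps4x. Rpl8 had 38 fragments at the summit there in a peak of 149 bp, the narrowest of the family, and in the control female list the nearest peak edge was 4.11 kb away. Rps4x had 22 fragments in the VEDS male library, and the nearest control female peak was 32.2 kb away. Both ranked low in the VEDS male list (percentiles 33.3 and 26.4, defined below).

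By genotype, 80 members had a promoter peak in either control library and 82 in either VEDS library, beside 41.6% and 51.8% of all protein-coding genes. Within sex the order of the genotypes was opposite, with 80 control and 4 VEDS members in females and 3 and 82 in males. Both counts rest on 1 library, since without the control female library 3 members were left and without the VEDS male library 4. With 2 libraries against 2, which also differ in sex, the smallest exact two-sided permutation p is 0.333, and values are not normalized between lists, so that no test of genotype was made.

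Of the 9 paralogs and other genes, 5 had a promoter peak in both long lists and 4 in none. Rpl3l, a paralog restricted to heart and skeletal muscle, had no promoter peak in any library, and neither had Rpl10l and Rpl39l, which are mainly testicular, nor Rps27rt. The nearest peak edge was 3.26 kb from the TSS of Rpl3l and 22.5 kb from that of Rpl39l in the VEDS male library, and 775 kb from that of Rpl10l. The other 4 paralogs and Rps19bp1 had one in both long lists. Rpl22l1, the paralog of Rpl22, had 36 and 79 fragments at the summit in the long lists, which put it at the 96.2 and 95.9 percentile of all promoter peaks. Rpl36al had 23 and 65 fragments, Rps27l, a target of p53, 22 and 70, and Rpl7l1 22 and 50. Rps19bp1 had 16 and 35 fragments and was the lowest of this group in both lists.

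The family also has many pseudogenes. They include processed ones, which are copies of spliced mRNA without the parent promoter, and all kinds were counted together. Of 294 annotated, 2 had a peak within 1 kb of their start in the control female list (0.68%) and 7 in that of VEDS males (2.38%), while the short lists held none. Among the 289 that lie over 2 kb from any protein-coding TSS, it was 1 and 6. How reads that match several copies were placed is not given in the sources used here.

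Related gene groups were counted in the same way. Of 18 translation factors and other genes with TOP mRNA, such as Eef1a1, Eef2, Pabpc1 and Tpt1, 17 and 18 had one in the long lists. Of 20 genes for ribosome assembly and rRNA synthesis, such as Fbl, Ncl and Polr1a, it was 19 and 20. Of the 78 genes for mitochondrial ribosomal proteins, it was 62 (79.5%) and 77 (98.7%). Of the 10 S6 kinases, which phosphorylate Rps6 or related substrates, it was 6 and 7. The share of the S6 kinases was 60% in the control female list, where 41.5% of all genes had a promoter peak.

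Within a list, peaks were ordered by −log10 q, and each promoter peak was given its percentile among the promoter peaks of all protein-coding genes of that list (100 is the highest). The members sat in the upper part of both orders. Their median percentiles were 69 (quartiles 39.7 and 81.9, n = 80) and 76.9 (53.1 and 86.8, n = 82), where all promoters have a median of 50 by construction. The highest 25% held 37 and 43 members, and the lowest 25% held 10 and 3. Members had medians of 24.5 and 60.5 fragments at the summit, beside 19 and 42 for all protein-coding genes. As lists were shortened to their top peaks, the members stayed ahead of all genes. The top 5000 peaks reached 51 (59.3%) and 55 members (64%), but 18.6% and 18.8% of all protein-coding genes. The top 504 peaks, as many as the VEDS female list holds, reached 6 and 5 members (6.98% and 5.81%) and 2.12% of all genes in each.

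**Figure D1:**
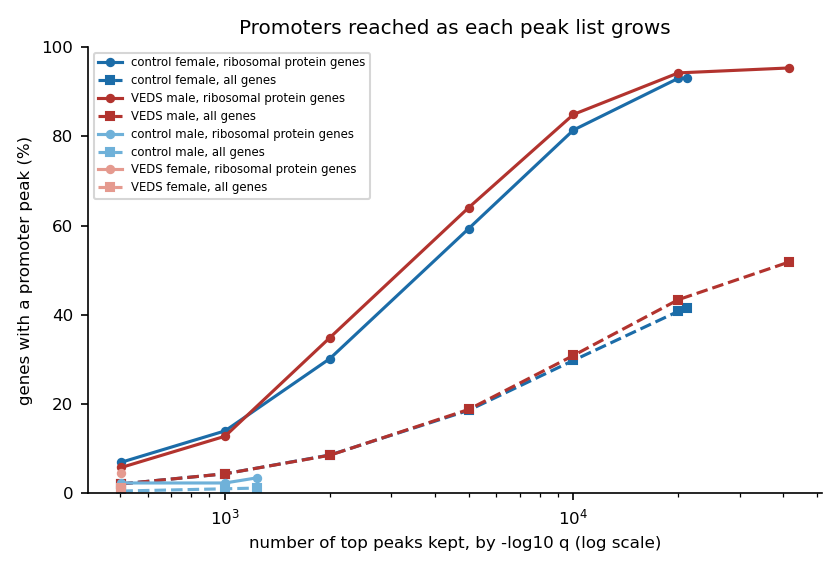
Share of genes with a promoter peak (percent, y axis) against the number of top peaks kept in each list by −log10 q (x axis, log scale), for the 86 ribosomal protein genes (solid lines, circles) and all protein-coding genes (dashed lines, squares) in the 4 libraries. At 5000 peaks the members reach 59.3% and 64% in the long lists, and all genes 18.6% and 18.8%.

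The small subunit genes stood higher in both orders than those of the large subunit. Their median percentiles were 78.9 and 83.6 (n = 30 and 31), and for the large subunit 61.8 and 72.2 (n = 45 and 46). In the VEDS male library, 29 of 31 small subunit promoters lay above the median of all promoters, and 31 of 46 of the large subunit. These are descriptions, since genes of 1 library are not replicates.

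Rps21, a small subunit protein, had the highest promoter peak of the family in both long lists, with 54 and 122 fragments at the summit. Its peaks ranked 99 of 21176 and 170 of 41444. Rpl22, which also binds viral and cellular RNA, had 30 and 100 fragments. Rps26, at the mRNA exit channel, had 29 and 85 fragments, and Rpl27, one of the genes mutated in Diamond-Blackfan anemia, had 48 and 97. Rpl34 and Rpl15 were also among the 5 highest of the control female list with 42 and 40 fragments, and had 63 and 89 in the VEDS male library. Neither Rps21 nor Rps26 or Rpl27 had a promoter peak in the short lists.

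At the other end, Rpl4 was lowest in the VEDS male library (16 fragments, percentile 12.3), and its summit lay at −505 bp from its TSS (negative is upstream), and the gene Zwilch starts on the opposite strand within 1 kb. In the control female library it had 10 fragments and a summit at −432 bp. Rpl7 was lowest in the control female library, with 9 fragments and a percentile of 2.73, and had 28 fragments (20.6) in the VEDS male library. These are different peaks that do not overlap, with summits at 231 and −35 bp from the TSS. Rpl19 had 18 and 31 fragments (33.4 and 16.5), and Rpl10a 14 and 47 (8.18 and 34.3). Rpl12 had 12 and 41 fragments (14.4 and 43). In the lowest 25% of promoter peaks lay 10 members in the control female list, 9 of them of the large subunit, and 3 in the VEDS male list, all of the large subunit.

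Genes of proteins with known special roles and the X-linked genes spread widely. In the VEDS male library those described in this paragraph ran from the 26.4 percentile (Rps4x) to the 92.3 (Rpl11), and the family from 12.3 to 99. Rpl22, described above, was at 98.3. The stalk proteins, which recruit elongation factors, had 30 and 76 fragments (Rplp0), 26 and 58 (Rplp1) and 18 and 52 (Rplp2) in the long lists. Rpl5 and Rpl11, which form a particle with 5S rRNA and bind MDM2 when ribosome assembly fails, had 22 and 48 and 26 and 76 fragments. Rps6, the substrate of the S6 kinases, had 32 and 75 fragments. Rps27a, which is made as a fusion with ubiquitin, had 15 and 38, and Rpsa, the 40S protein also called the laminin receptor, had 27 and 69. On the X chromosome, which males carry once, Rpl10 had 19 and 45 fragments, Rpl36a 10 and 39, Rpl39 13 and 31, and Rps4x none called and 22. The X-linked genes ranked between the 26.4 and 60.1 percentile in the VEDS male library, with 1 of 4 above the median of all promoters. In the control female library the 3 that had a peak lay between the 18.9 and 41.1 percentile. Whether the number of X chromosomes plays a part was not tested, and genotype and depth differ between these libraries as well.

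The long lists put the members in a similar order. Over the 80 genes with a promoter peak in both, Spearman's rho of the rank was 0.77, and over all 9033 such genes 0.85; genes of a list share its depth and are not independent. The 2 peaks of a gene overlapped for 79 of 80 members (98.8%, all genes 98.1%), with a median distance between summits of 21 bp (31 bp for all genes). The VEDS male to control female ratio of fragments at the summit had a median of 2.51 over members and 2.52 over all genes, and it ranged from 1.42 at Rpl24 to 6 at Rpl28. The ratio is not normalized for the depth of the lists.

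A few members stood at different places in the long lists. Rpl28 was at percentiles 15.5 and 85.8 (13 and 78 fragments). Rpl21 was at 39.4 and 86.1 (15 and 68 fragments), Rpl36a at 18.9 and 60.1, and Rps10 at 31.9 and 69.3 (15 and 54). In the other direction, Rpl24 was at 78.4 and 45.1, with 26 and 37 fragments. Genotype, sex and depth all differ between these libraries and cannot be told apart.

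**Figure D2:**
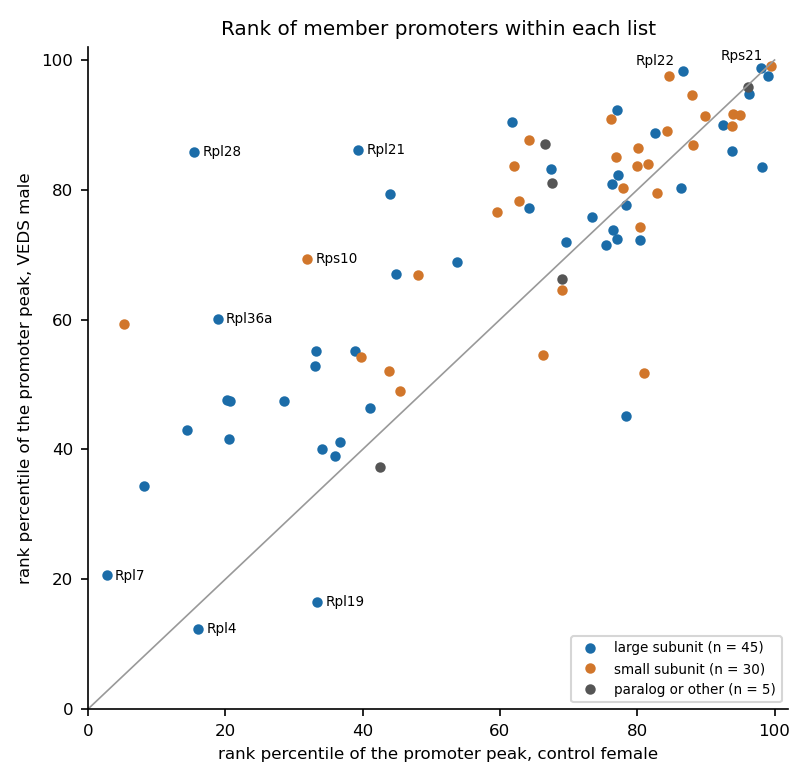
Rank percentile of each promoter peak among all protein-coding promoter peaks of its list, in the control female (x axis) and VEDS male library (y axis), for the 80 members with a peak in both, colored by subunit, with the line of equal rank. Most points lie in the upper right (Spearman's rho 0.77), with Rpl28 and Rpl21 far above the line and Rpl4, Rpl7 and Rpl19 at the bottom.

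In the short lists, 6 members had a promoter peak. Rps19, the gene most often mutated in Diamond-Blackfan anemia, was in all 4 lists, with 42 fragments at the summit among control females, 11 among control males, 7 among VEDS females and 94 among VEDS males. Its peaks were 711, 478, 353 and 755 bp wide in the same order, and the summit lay at −321 and 120 bp from the TSS in the long lists and at 120 bp among control males. From this GENCODE start the summit was upstream in both female libraries and downstream in both male libraries. The RefSeq annotation places the start 221 bp farther downstream. From there the summit lay upstream in all 4 libraries, at −542 and −101 bp in the long lists. Its percentiles were 88.1, 71.2, 41.7 and 86.9.

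Rpl22, Rpl32 and Rpl41 were in the VEDS female list with 6, 6 and 9 fragments, and none of them was in the control male list. Rpl41, the smallest ribosomal protein, had 46 and 94 fragments in the long lists, and Rpl32 had 14 and 43. Rps2 and Rps25 were in the control male list with 4 and 12 fragments, and Rps2, with a −log10 q of 1.32, ranked 1222 of 1236. In the long lists, Rps2 had 27 and 80 fragments and Rps25 19 and 58. In the long lists, Rpl22 (percentiles 86.7 and 98.3), Rpl41 (93.8 and 86) and Rps19 stood high. Rps2 (62.1 and 83.7), Rps25 (48.1 and 66.8) and Rpl32 (33.1 and 52.8) stood lower. With −log10 q of at least 5, the VEDS female list kept Rpl41 and no other member.

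Promoter peaks of the members were centered close to the TSS. The summit lay at a median of −31.5 bp in the control-female list (quartiles −67 and 5.5) and −32 bp in that of VEDS males (−64.8 and 2), where negative values are upstream. For all protein-coding promoters, it was −52 bp (−118 and 6) and −47 bp (−109 and 8). Within 50 bp of the TSS lay 43 of 80 member summits (53.8%) and 44 of 82 (53.7%), against 33.7% and 34.9% of all. The peak covered the TSS itself in 71 of 80 and 79 of 82 members (88.8% and 96.3%), and in 76.4% and 81.6% of all genes. Mitochondrial ribosomal protein genes were also centered near the TSS, at medians of −25.5 and −20 bp.

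**Figure D3:**
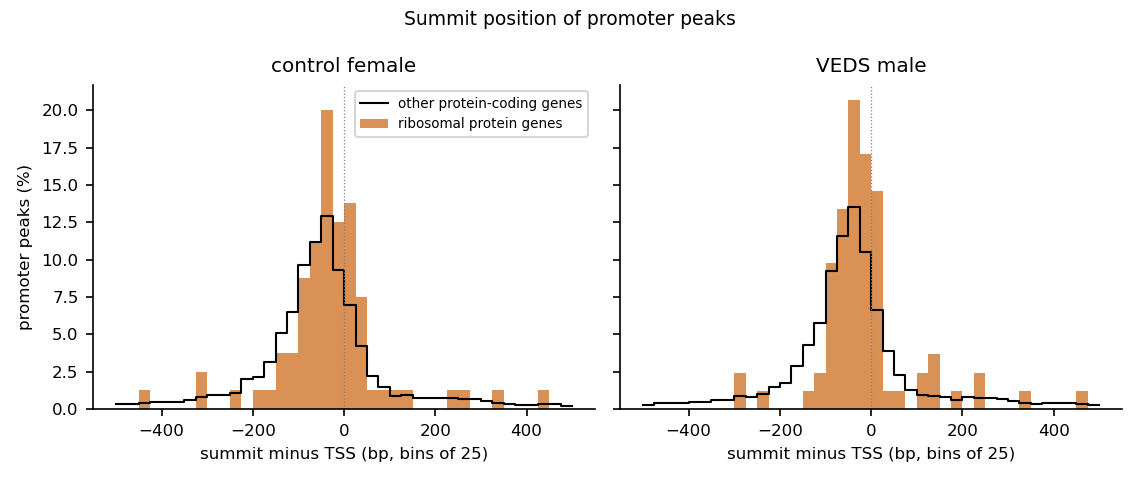
Position of the summit relative to the TSS (bp, bins of 25, negative upstream) as percent of promoter peaks, for ribosomal protein genes (bars, n = 80 and 82) and other protein-coding genes (black line), in the long lists. Summits beyond 500 bp are not drawn. The bars rise above the line between 50 bp upstream and 25 bp downstream.

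Where a member's summit lay far from the TSS, the 2 annotations often differed. Rpl35 had its summit 438 and 467 bp downstream of the GENCODE start in the long lists, but −55 and −26 bp from the RefSeq start of the gene. Rpl30 was at 333 and 332 bp, and at −31 and −32 bp from the RefSeq start. For Rps10 the values were 274 and 247 bp, and −27 and −54 bp, and for Rpl12 133 and 129 bp, and −20 and −24 bp. In these 4 genes the summit lay nearer to the RefSeq start in both libraries. Rps25 was at 520 and 232 bp, and at −55 and −343 bp from the RefSeq start. Upstream, Rpl10 had its VEDS male summit at −560 bp (−108 bp in the control female library), Rpl4 at −505 bp, Rpl19 at −291 bp and Rpl32 at −276 bp, and of these Rpl19 was the single one brought near, to −77 bp, by the RefSeq start. Other members lay farther from the RefSeq start. Rpl22 was at −108 and −77 bp from the GENCODE start and at 1309 and 1340 bp from that of RefSeq, and Rps26 was at −89 and −84 bp, and −330 and −325 bp. Rpl18 was at −126 bp and −2740 bp in both lists. Over all members, summits over 200 bp away numbered 9 and 9 with GENCODE and 9 and 10 with RefSeq starts, and those within 50 bp 43 and 44 with GENCODE and 39 and 38 with RefSeq. RefSeq gave the same base as GENCODE for 21 of the 86 members and a base within 50 bp for 60. With RefSeq starts for all genes, the median summit was at −46 bp for members in both long lists, and at −55 and −50 bp for all genes.

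The peaks of the members were somewhat wider than those of all promoters. Their median width was 340 bp and 503 bp in the long lists, against 302 and 446 bp for all protein-coding genes. Over all promoters of the VEDS male list, the median width was 268 bp in the lowest 25% of ranks and 549 bp in the highest. In the highest 25% the members were narrower than all promoters, at 353 against 393 bp (n = 37) and 507 against 549 bp (n = 43). The widest member peaks were those of Rpl10 (825 bp), Rps19 (711 bp) and Rps27a (632 bp) in the control female library, and of Rps25 (889 bp), Rpl30 (887 bp) and Rps23 (840 bp) in the VEDS male library. The narrowest were those of Rpl35 (125 bp), Rpl7 (129 bp) and Rps19bp1 (161 bp), and of Rpl8 (149 bp), Rpl36 (188 bp) and Rpl11 (238 bp). Of the 80 members in both lists, 76 had the wider peak in the VEDS male library, by a median of 1.47 times (1.48 for all genes).

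**Figure D4:**
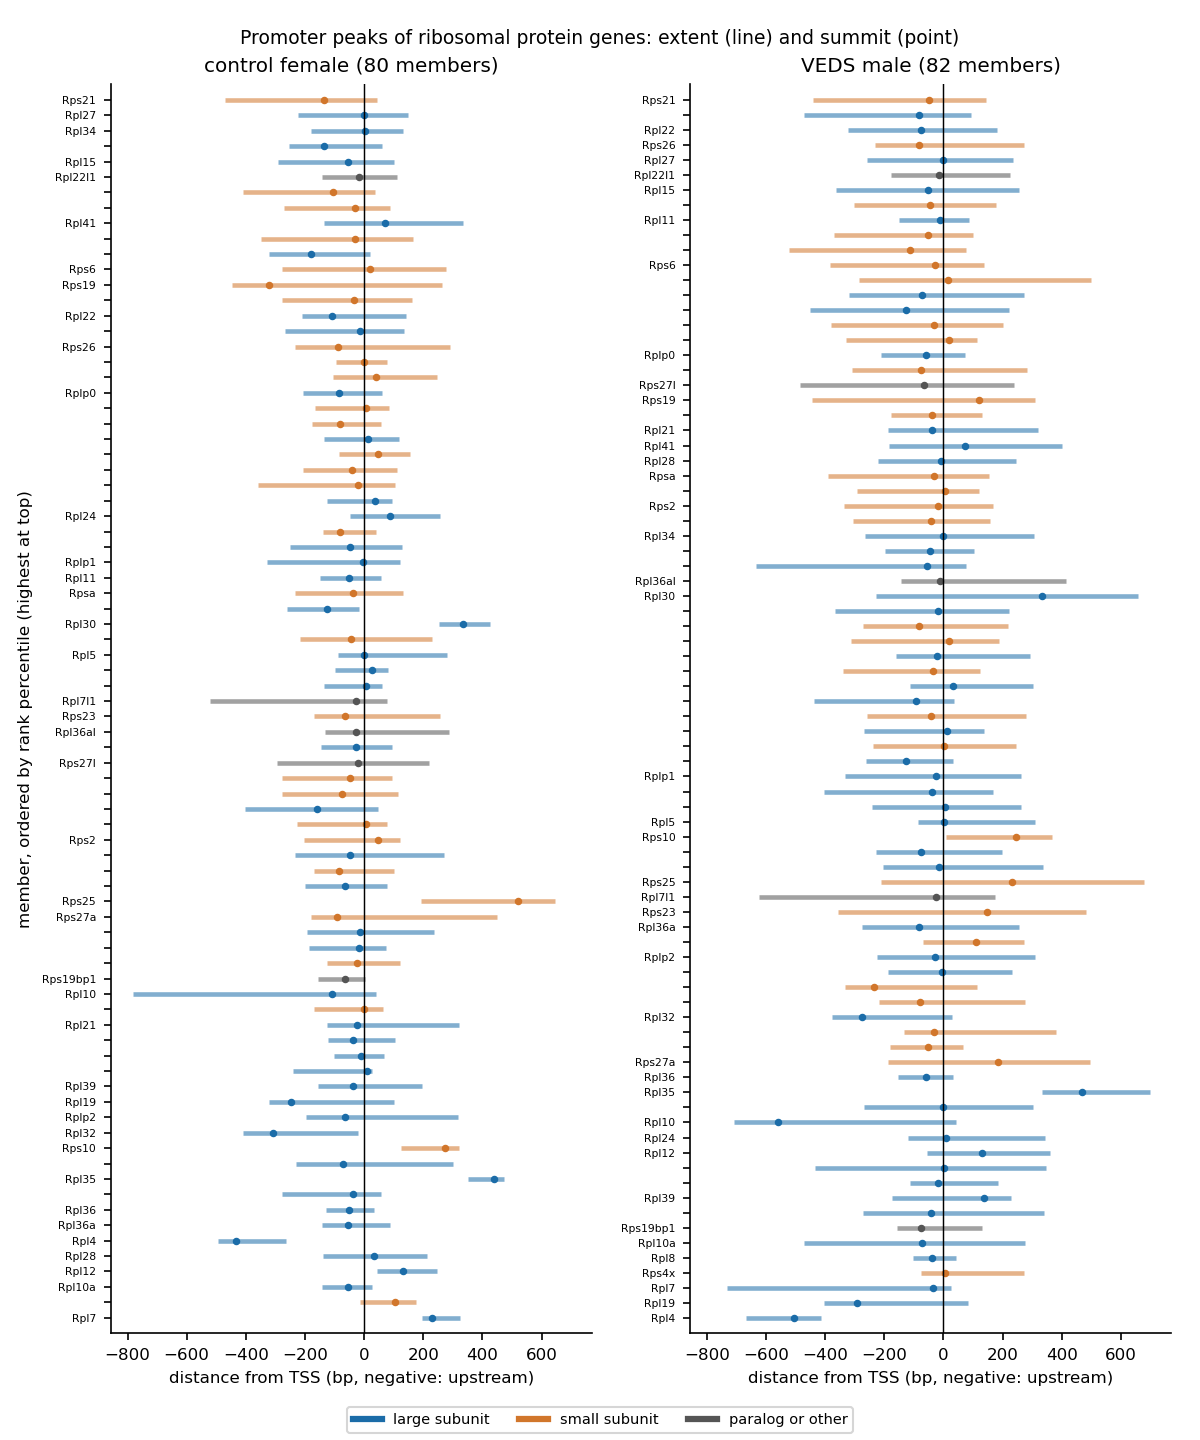
Extent (line) and summit (point) of the promoter peak of each ribosomal protein gene relative to its TSS (bp, negative upstream, vertical line at 0), ordered by rank percentile with the highest at the top and names given for members described in the text, in the control female (80 members) and VEDS male library (82 members), colored by subunit. Rps21 is at the top of both panels, and the summits of Rpl4, Rpl19, Rpl30, Rpl32, Rpl35 and Rps10 stand off to 1 side of the TSS in both.

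Some genes of the family share their promoter region with another gene. Of the 86, 11 (12.8%) had an annotated start of a protein-coding gene on the opposite strand within 1 kb, against 9.13% of all protein-coding genes. These were Rpl4 (with Zwilch), Rpl7a (Med22), Rpl9 (Lias), Rpl12 (Lrsam1), Rpl15 (Nkiras1), Rpl35a (Iqcg), Rpl36al (Mgat2), Rps18 (Vps52), Rps25 (Trappc4), Rps27a (Clhc1) and Rps28 (Ndufa7). All 11 had a peak in both long lists, with a median percentile of 72 in the VEDS male library (77.2 for the 71 others). A promoter peak there cannot be assigned to 1 of the 2 genes. The introns of 30 members hold 58 annotated small nucleolar RNAs, up to 5 in Rpl4, and all 30 hosts had a promoter peak in both long lists. Their median percentile in the VEDS male library was 78.8, and that of the 52 other members with a peak 72.4.

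The reference sequence of the promoters was searched for fixed strings, on both strands from 250 bases before to 50 bases after the TSS unless stated. A match describes the letters and not a bound site. CCGGAAG, the ETS core, was in 26 of the 86 promoters (30.2%, 21.5% to 40.6%) and in 11.2% of all protein-coding promoters. TGACG, the CRE core, was in 41 (47.7%, 37.4% to 58.1%) against 23.7%. At least 1 of these strings was in 54 member promoters (62.8%, against 30.8% of all), and both in 13 (15.1% against 4.03%), among them Rps6, Rpl15, Rpl27a, Rpl31 and Rps18. AAGATGGCG, the YY1 core, was in 5 (5.81%, 2.51% to 12.9%, against 1.84%): Rpl7l1, Rpl18, Rpl23a, Rpl35a and Rps27. GCATGCG, the NRF1 core, was in 8 (9.3% against 4.67%) and CACGTG, the E-box of MYC and USF, in 9 (10.5% against 7.71%). GGGCGG, the SP1 box, was in 45 (52.3% against 45.3%), and CCAAT, the NF-Y box, in 26 (30.2% against 38.6%). TATAAA on the coding strand from 40 to 15 bases before the TSS was in none of the 86 promoters and in 2.47% of all.

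Since most members have an accessible promoter, the shares were also set beside the 11314 promoters with a peak in the VEDS male library. There the ETS core was in 30.5% of the 82 member promoters and 18.9% of all, and the CRE core in 48.8% and 34%. The order was the other way for the SP1 box, at 53.7% of members and 67.2% of all accessible promoters. The members also had fewer G and C bases than accessible promoters in general, at a median of 56% against 61.3%, although their CpG observed over expected was 0.853 against 0.782. The mitochondrial ribosomal protein genes also held these strings, with the ETS core in 37.2%, the CRE core in 35.9% and the YY1 core in 10.3% of 78 promoters.

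The strings searched for the TCT initiator were frequent on the coding strand. CTTT followed by 2 pyrimidines (4 possible strings) lay within 100 bases of the TSS on the coding strand in 48 of 86 members (55.8%, 45.3% to 65.8%), and on the other strand in 22 (25.6%, 17.5% to 35.7%). All protein-coding promoters had them in 24.7% on each strand, and the mitochondrial ribosomal protein genes in 24.4% and 26.9%. Among promoters with a peak in the VEDS male library, it was 56.1% of members and 21% of all on the coding strand. These 4 strings overlap each other and the TOP start below, and they were chosen after member sequences had been seen. The string nearest to the TSS lay at a median of 26.5 bases downstream in members (quartiles 0 and 51), and at −5 over all genes that have one (−47 and 42). In 20 of the 48 members (41.7%) the nearest string lay within 30 bases of the TSS, against 34.6% of all genes that have one. Measured from that string, the median summit lay at −71 and −75.5 bp in the long lists (n = 45 and 46). Over all genes that have one, it lay nearer, at −44 and −39 bp. Within 50 bp of the string lay 26.7% and 23.9% of these member summits, against 29.2% and 28.2% of all. From this start the members were not nearer than all genes. A TOP start, a C at the annotated TSS followed by at least 4 pyrimidines, was in 9 members (10.5%, against 2.27% of all), among them Rpl4, Rpl32, Rpl36, Rpl37, Rpl37a, Rps21, Rps24 and Rps27rt. The longest pyrimidine runs at an annotated TSS were 19 bases at Rps24, 17 at Rpl32 and 15 at Rpl22.

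**Figure D5:**
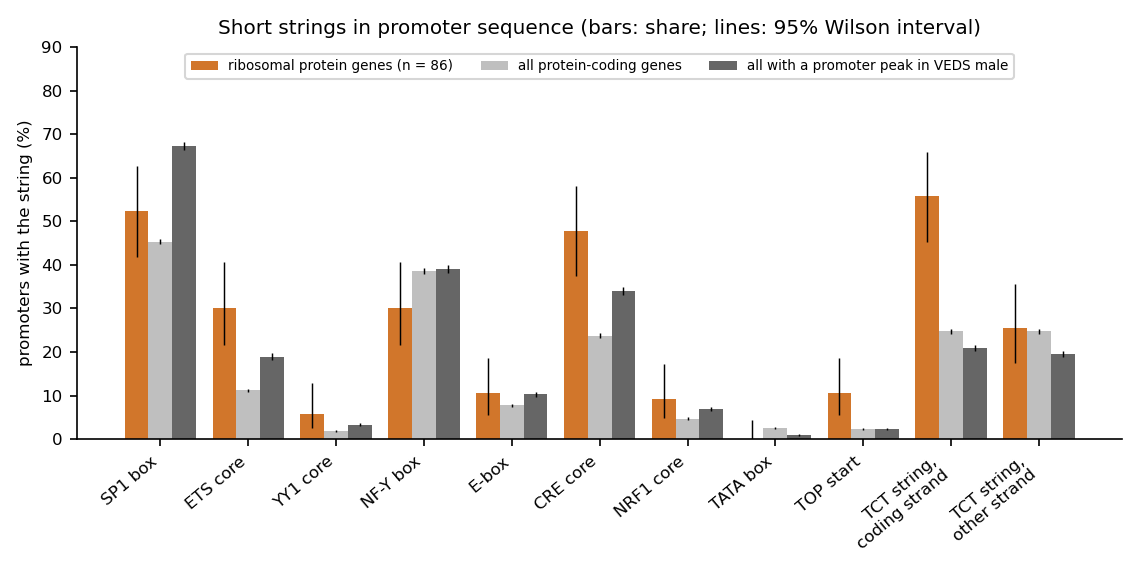
Percent of promoters that hold each string, for the 86 ribosomal protein genes, all 21853 protein-coding genes and the 11314 with a promoter peak in the VEDS male library. Bars are shares and lines their 95% Wilson intervals. The members lie above both other groups for the ETS core, the CRE core, the TOP start and the TCT strings on the coding strand, while on the other strand the TCT shares are 25.6% of members, 24.7% of all and 19.5% of accessible promoters. Their shares are also higher for the YY1 core, the NRF1 core and the E-box, but there the members' interval spans the share of accessible promoters.

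Peak rank was set beside the strings within the members. With the CRE core, the median percentile was 76.6 and 82 in the long lists, and without it 63.5 and 67.8. With the ETS core it was 77 and 83.9, and without it 68.3 and 73.8. For the TCT strings on the coding strand it was 66.3 and 76.2 with and 76.4 and 79.9 without. The 8 promoters with the NRF1 core had 37.4 and 51.3. The percentiles within each group spread over most of the range, and these medians are descriptions with no test. Of the 5 highest promoters of the VEDS male list, Rps21 holds the ETS core, the SP1 box and the NF-Y box between 60 bases before the TSS and 25 bases from it, and Rpl27 the CRE core.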

How the data were processed

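Peak lists of 4 ATAC-seq libraries were used, 2 per genotype. The authors aligned reads to mm10 (GRCm38), removed duplicates by barcode, shifted reads to the Tn5 cut, ran MACS2 in narrow-peak mode on each library and excluded blacklisted regions; the aligner is not given in the sources used here. Each deposited peak has a score (10 times −log10 q without decimals), a fold enrichment (a ratio over the local background of its library), and p and q as −log10. They are not normalized between libraries and were used only within a list. The fragments at a summit were recovered as the whole number that gives the deposited fold enrichment (pseudocount 1) and −log10 p under a Poisson distribution, for 99.3% to 99.9% of peaks. Whether MACS2 stacked whole fragments or extended Tn5 cuts is not given in the sources used here. The word fragments stands for that whole number in either case. Total depth per library was not used here.

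For each gene, 1 TSS was taken from GENCODE vM21, from the complete transcript of best APPRIS rank, then support level, then CCDS tag, then most 5′ start. A promoter peak has an edge within 1 kb, and where several did, the one of highest −log10 q was used. Distances are signed along transcription. Strings were searched in the GRCm38 reference sequence. Peaks, fragments and strings were first recovered from simulated data. Shares have 95% Wilson intervals. No test between genotypes was made.

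The members, gene lists and strings were chosen with earlier results of these data known. Genes named in the text were those in a short list, those absent from a long list, the 5 highest and 5 lowest ranks, the widest and narrowest peaks, the farthest summits, the largest rank gaps, and a list of members with known roles; others illustrate a string or a shared start and were chosen after their values were seen. Some genes under this rule are not reported here. Alternatives were other distances, starts, thresholds, windows and members, and leaving out each library. RefSeq starts and the TCT strings were chosen after seeing the data. The versions were Python 3.11.15, numpy 2.4.6, pandas 2.3.3, scipy 1.17.1 and matplotlib 3.10.9.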

Additional observations from a re-analysis of the deposited data

Results flagged for a closer look

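The number of ribosomal protein genes with a promoter peak differed between the genotypes in opposite directions in the sexes. VEDS minus control was −76 genes in females (4 against 80) and 79 genes in males (82 against 3). The share of all protein-coding genes had the same order, at 1.24% against 41.5% in females and 51.8% against 1.19% in males, as had the number of peaks in the lists (504 against 21176, and 41444 against 1236). With 1 library for each genotype and sex, the difference between the sexes was not tested.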

How the results depend on the processing

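Of 114 alternative values, all of members alone, 100 stayed within the spread or 1.5 times the count of the main value, 14 moved and 0 reversed. At equal list size (504 peaks), 6 and 5 members had a promoter peak in the long lists. At −log10 q of at least 5, the VEDS female list held 1 member, and at 10 it held 0, as did the control male list. Leaving out each library gave 3 to 80 members for control and 4 to 82 for VEDS. Medians of the summit position moved from −31.5 and −32 bp to −71 bp (control female) and −75.5 bp (VEDS male) from the TCT strings, and in the VEDS male library to −46 bp from RefSeq starts. From the TCT strings all genes had medians of −44 and −39 bp, nearer than those of the members. In the window from 100 bases before to 50 after the TSS, shares fell to 20.9% (NF-Y box), 3.49% (E-box), 31.4% (CRE core) and 4.65% (NRF1 core). Over all protein-coding genes this shorter window gave 24%, 4.72%, 16.3% and 2.97%. The members stayed above all genes for the CRE and NRF1 cores and below for the NF-Y box. For the E-box they were now below, while in the longer window they were above (10.5% against 7.71%). The genotypes are matched by sex, with 1 library for each genotype and sex. No paired analysis was made, since no pair is replicated within a sex and values are not normalized between lists. The medians of 6 and 7 fragments at a summit limit what the short lists can show.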
